A study of Mus musculus with 8 samples.

Results

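Chemically induced pluripotent stem cells, or CiPSC, are reprogrammed from somatic cells with small-molecule compounds in place of introduced genes. The series held 8 mouse RNA-seq libraries, and 3 of them were CiPSC lines made from neural stem cells, named NSC-CiPSC lines 1, 2 and 3. These sister lines were not alike, and line 1 was set against lines 2 and 3 gene by gene. A gene met the rule when its level in line 1 was at least 2-fold above both other lines, or at least 2-fold below both, with a 95% interval that overlapped neither. Levels were FPKM (fragments relative to transcript length and to all mapped fragments), and a gene was compared when its mean over the 3 lines was at least 5 FPKM and its symbol had no -ps ending. Of 8867 entries compared, 251 met the rule.

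The strain label reads C57BL/6J-Tg(GOFGFP)12Imeg/RbrcxICR for line 1, C57BL/6J-Tg(GOFGFP)13Imeg/RbrcxICR for line 2 and C57BL/6J-Tg(GOFGFP)14Imeg/RbrcxICR for line 3, and the labels do not explain the numerals 12, 13 and 14. All 3 lines carry the GOFGFP transgene in a cross with ICR, and their cell type is given as CiPSCs. The compounds, their doses, the culture medium and the passage of the lines are not in the labels used here. Neither do the labels say whether the lines came from separate animals or whether each is 1 clone. The other libraries were neural stem cells at passage 2 (strain numeral 11, E13.5), primary intestinal epithelial cells (numeral 15, E13.5), CiPSC lines 10 and 13 from intestinal epithelial cells (IEC-CiPSC, numerals 16 and 17) and R1 embryonic stem cells (ESC) of a 129X1 x 129S1 background. Each library was sequenced from total RNA of a bulk culture, so fewer cells of a type and less RNA per cell cannot be told apart.

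With 1 library of line 1 against 2 others no informative test can be made. The smallest p that 3 arrangements of the lines allow is 0.333, so none is given. The intervals are those of single libraries and cover the uncertainty of the level within a library, not the variation between cultures of a line. The genes were chosen by the values printed here, which are therefore a description.

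Pluripotent mouse cells in culture obtain much of their energy by glycolysis. Under low oxygen, or when oxygen-sensing enzymes are inhibited, the transcription factor HIF accumulates and binds short elements near glucose transporters, glycolytic enzymes and genes such as Bnip3 and Vegfa. At normal oxygen the prolyl hydroxylases Egln1 and Egln3 mark HIF, and the ubiquitin ligase subunit Vhl leads it to degradation. A second pathway of note in these cells is FGF signalling through ERK, whose feedback inhibitors of the Sprouty and Dusp families follow its activity, and which culture media for naive cells commonly block.

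Depth estimated from the intervals of 345 low-level entries was 0.903 times that of line 1 in line 2 and 1.02 times in line 3. FPKM sums were 738387 in line 1, 771389 in line 2 and 748446 in line 3. Transcripts of the mitochondrial genome held 5.61% of the sum in line 1, 1.94% in line 2 and 3.85% in line 3. The median log2 ratio of line 1 to the geometric mean of lines 2 and 3 was -0.06 over all genes compared, with quartiles of -0.32 and 0.21. Ratios below are on this scale unless a single line is named.

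The label of pluripotent cells was checked against 10 marker genes, and all 10 reached 5 FPKM in each line. Pou5f1, the factor required for pluripotency, was at 1001, 935 and 848 FPKM in lines 1, 2 and 3. Sox2, its partner, was at 143, 138 and 143 FPKM, and Esrrb, a naive-state factor, at 127, 122 and 129 FPKM. The 3 lines lay close together for these genes. Klf4 was at 88.0, 69.4 and 87.4 FPKM, and Tdgf1, a co-receptor for Nodal, at 528, 646 and 596 FPKM. Nanog was lowest in line 1, at 218 FPKM against 441 and 383, a distance of 1.75-fold from the nearer line that stayed within the 2-fold limit. Dppa3, a maternal factor also found in germ cells, was at 17.9, 34.4 and 26.8 FPKM, and Dppa5a at 2754, 4321 and 3559.7 FPKM. Zfp42 went the other way, at 238 FPKM in line 1 against 146 and 158. None of these 9 genes met the rule.

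Markers of other cell types were summed in each line. The summed FPKM of 12 fibroblast or feeder markers was 10.6, 10.7 and 8.19 in lines 1, 2 and 3, with none of the 12 at 5 FPKM and Lum at 0 in each. For 12 mesoderm markers the sum was 12.9, 7.95 and 7.63, for 14 markers of extraembryonic endoderm 121, 149 and 142 (3 of the 14 at 5 FPKM or more in each line), for 12 trophoblast markers 44.3, 62.2 and 57.0, and for 11 of endothelium and blood 20.5, 33.0 and 28.1. Elf5, Tpbpa and Prl3d1 of trophoblast and Cdh5, Hbb-bh1, Hba-x and Tyrobp of endothelium and blood were at 0 in all 3 lines. The 10 neuronal markers found summed to 85.0, 171 and 148, of which Stmn2 made up 68.2, 151 and 129.96 FPKM, a level like that of Sox2 in lines 2 and 3.

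Line 1 was the outlying line. It was higher than both sister lines in 82 genes (0.925% of those compared) and lower than both in 169 (1.91%), 251 in all (2.83%). Taken in the same way, line 2 was higher than both others in 5 genes (0.0564%) and lower in 18 (0.203%), 23 in all (0.259%). Line 3 was outside both others in 0 genes (0%). The bar chart of outlying genes sets these counts side by side.

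**Figure D1:**
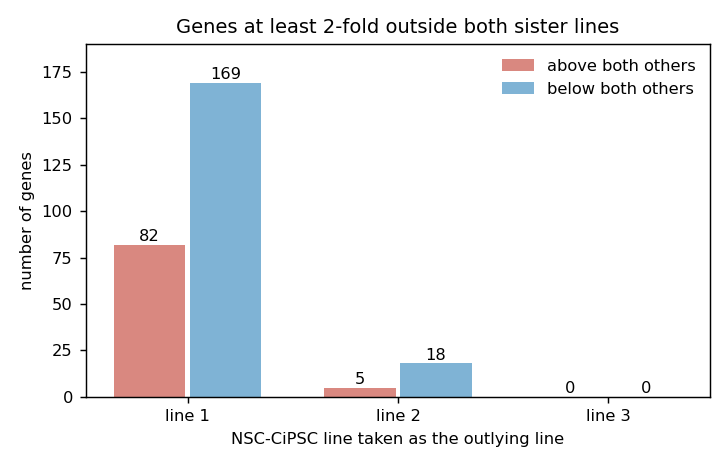
Number of genes (vertical axis) at least 2-fold above or below both other NSC-CiPSC lines with non-overlapping 95% intervals, with each line taken in turn as the outlying one (horizontal axis), among 8867 entries compared. Line 1 has 82 genes above and 169 below, line 2 has 5 and 18, and line 3 has 0 and 0.

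Pairs of lines gave the same order. Lines 1 and 2 differed by 2-fold with non-overlapping intervals in 582 genes (6.56%), of which 228 were higher in line 1 (2.57%) and 354 lower (3.99%). Lines 1 and 3 differed in 303 genes (3.42%), 102 higher in line 1 (1.15%) and 201 lower (2.27%). Lines 2 and 3 differed in 30 genes (0.338%), 9 higher in line 2 (0.101%) and 21 lower (0.237%). Each pair shares a line with the others, so these counts are not independent. Levels lay within 1.5-fold for 95.5% of genes between lines 2 and 3, for 84.5% between lines 1 and 3 and for 76.7% between lines 1 and 2.

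Line 3 stood between the other lines for most of the outlying genes. Its level was nearer to line 1 than that of line 2 for 59 of the 82 higher genes and for 145 of the 169 lower genes. The fold to the nearer sister line had a median of 2.30 for higher genes and 2.41 for lower genes. It reached 4-fold in 8 higher and 18 lower genes. All 8 higher genes lay below the required mean in both sister lines, so they reached it through their level in line 1. They include an entry of Rnf113a2, uncertain because its fragments could be split between entries, and the Cphx copies, which count as 1 observation. The 18 lower genes include entries of Rnf113a2 and Gm9844, uncertain for the same reason. Most of the 82 higher and 169 lower genes were of modest level, with a mean FPKM under 20 for 65 of 82 and 116 of 169, against 49.6% of all genes compared. Counting precision differed by direction, since the median number of fragments in line 1 implied by the interval was 252 for higher genes and 56.0 for lower genes.

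**Figure D2:**
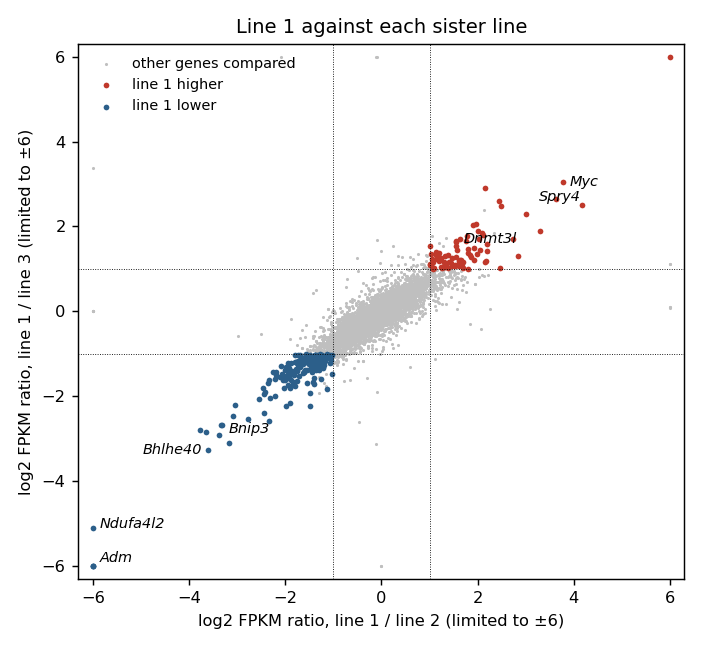
Each point is a gene, with the log2 FPKM ratio of line 1 to line 2 on the horizontal axis and of line 1 to line 3 on the vertical axis, both limited to 6 in either direction. Red points are the 82 genes that met the rule as higher in line 1, blue points the 169 lower, grey points the other genes compared, and dotted lines mark 2-fold. Blue points at the lower limit include an entry of Rnf113a2, a symbol listed more than once. Adm, Ndufa4l2 and Bhlhe40 lie far out on the lower side, and Myc and Spry4 on the other.

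Genes of glycolysis and the response to low oxygen made up the clearest group on the lower side. Of 33 genes on a list of this pathway, 31 were compared, and 17 were lower in line 1 while 0 were higher. Of all genes compared, 1.91% were lower and 0.925% higher. The median log2 ratio over the 31 was -1.20, against -0.06 over all genes, and line 1 was below both sister lines for 29. This list was written with earlier results of these lines known.

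The stress and mitophagy genes showed wide gaps. Bnip3, a mitochondrial protein that promotes removal of mitochondria, is ENSMUSG00000078566 at chr7:138890836-138909519 of mm10. It was at 11.5 FPKM in line 1 (interval 8.21 to 14.7), 115 in line 2 (106 to 124) and 73.0 in line 3 (65.4 to 80.6), 6.36-fold below the nearer line. Ddit4, an inhibitor of mTOR complex signalling at chr10:59949675-59951770, was at 23.5 FPKM (21.1 to 26.0) against 234 (226 to 242) and 149.6 (143 to 156), also 6.36-fold below. Line 1 was far from both others for these genes, with line 2 the highest. Ndrg1, a differentiation-related gene induced by low oxygen, was at 1.37 FPKM against 18.6 and 9.44, and Ankrd37 at 1.42 against 17.8 and 10.2. For both, the interval in line 1 reached 0.

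The oxygen-sensing branch itself was included. Egln3, an oxygen-dependent prolyl hydroxylase that is also a HIF target, was at 2.60 FPKM in line 1, 14.1 in line 2 and 13.6 in line 3. Its relative Egln1 was at 6.63, 27.7 and 18.6 FPKM, and Vhl at 6.34, 16.3 and 14.7 FPKM. All 3 met the rule as lower in line 1, the first by 5.25-fold, Egln1 by 2.80-fold and Vhl by 2.31-fold. The HIF subunits did not meet it. Hif1a was at 29.7, 24.6 and 23.2 FPKM, Epas1 at 14.3, 7.57 and 10.7, and their partner Arnt at 27.2, 36.4 and 34.7. Egln2, the third hydroxylase, was at 26.7, 19.4 and 20.7 FPKM, and Hif1an, an asparagine hydroxylase acting on HIF, at 11.0, 10.1 and 9.58.

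Secreted and matrix-related genes of the pathway were lower as well. Vegfa, the main angiogenic growth factor, was at 6.58 FPKM in line 1 (4.06 to 9.09), 24.5 in line 2 and 29.1 in line 3. Adm, which encodes the vasodilator peptide adrenomedullin, was at 0.0827 FPKM (0 to 0.248) against 10.5 (8.55 to 12.5) and 7.13 (5.61 to 8.65). No fold is given for Adm, since its interval in line 1 includes 0. P4ha1 and P4ha2 encode catalytic subunits of the hydroxylase that modifies collagen prolines. The former was at 4.88, 26.9 and 17.0 FPKM, and the latter at 2.67, 12.2 and 7.51. Ero1l, an oxidase of the endoplasmic reticulum, was at 13.8, 42.6 and 32.5 FPKM. Line 1 was the lowest for each of these genes, without overlap.

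Along glycolysis, the genes meeting the rule were transporters and particular isoforms. Slc2a1, the glucose transporter GLUT1, was at 84.5 FPKM in line 1 (80.3 to 88.8), 236 in line 2 (229 to 243) and 179 in line 3 (173 to 185). Slc16a3, which exports lactate, was at 8.91, 75.2 and 49.6 FPKM, 5.56-fold below the nearer line. Among enzymes, Hk1 was at 10.2, 39.3 and 30.4 FPKM, Pfkp at 34.3, 84.3 and 71.7, and Tpi1 at 138, 353 and 286. Aldoc, an aldolase isoform of brain, was at 2.85, 23.5 and 13.1 FPKM, and Eno2, the neuronal enolase, at 1.34, 12.0 and 11.6. Pfkfb3, which makes the activator of phosphofructokinase, was at 2.56, 10.1 and 6.36 FPKM. For all of these enzymes line 1 lay below both sister lines, by 2.07-fold for Tpi1 and 8.62-fold for Eno2. The fold of Eno2 rests on a low level in line 1. With 1 added to each FPKM its log2 ratio to the nearer line went from -3.11 to -2.42.

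The abundant enzymes of the same pathway were lower by less than 2-fold from the nearer sister line. Pgk1 was at 261 FPKM in line 1 against 607 and 418, Aldoa at 640.5 against 1465 and 1074, and Ldha at 657 against 966 and 796. Gapdh was at 3235, 3996 and 3937 FPKM, and Pkm at 1192, 1542 and 1337. The exceptions to the common direction were Pdk1, a kinase that inhibits pyruvate dehydrogenase, at 50.2, 39.1 and 36.3 FPKM, and the histone demethylase gene Kdm3a at 28.4, 26.8 and 25.9 FPKM. Both are known HIF targets and both were slightly higher in line 1.

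**Figure D3:**
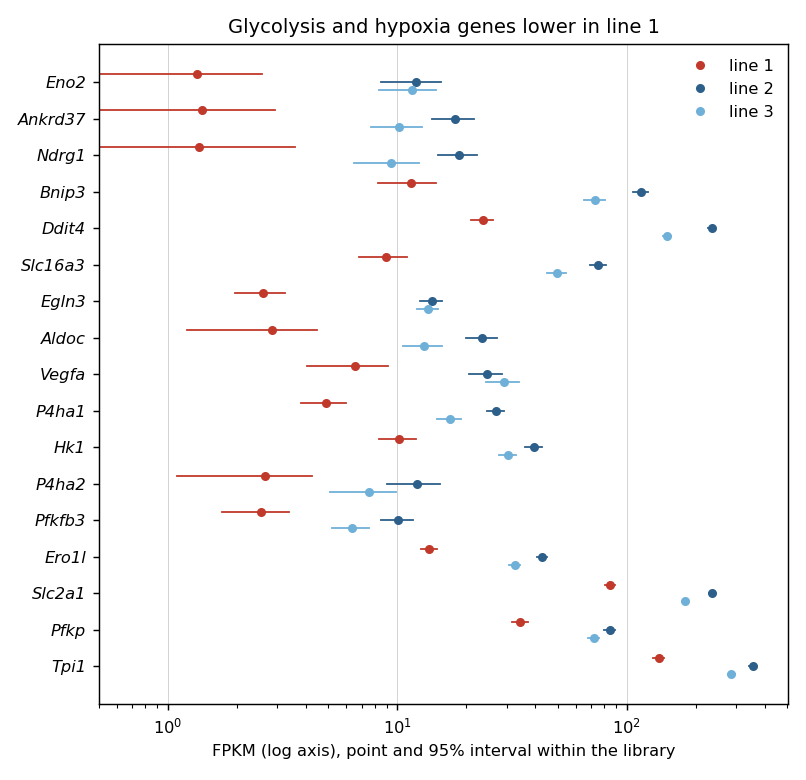
FPKM on a log axis (horizontal) in NSC-CiPSC lines 1 (red), 2 (dark blue) and 3 (light blue) for the 17 glycolysis and hypoxia genes that were lower in line 1 (vertical). Points are the levels and bars the 95% intervals within the library, which for Eno2, Ankrd37 and Ndrg1 run past the left edge of the axis in line 1, and in every row the red point lies to the left of both blue points.

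Beyond the list, further lower genes of this kind were noticed after their values were seen. Ndufa4l2, a mitochondrial protein induced by HIF, was at 0.388 FPKM in line 1 (0 to 0.836), 29.0 in line 2 (24.9 to 33.1) and 13.4 in line 3 (10.8 to 16.0). Bhlhe40, a transcriptional repressor of the low-oxygen and circadian responses, was at 4.26, 52.0 and 40.9 FPKM, 9.62-fold below the nearer line. Mgarp, a mitochondrial protein, was at 5.61, 30.5 and 21.5 FPKM. Ndufa4l2 and Bhlhe40 were, with Adm, among the 15 largest differences that the naming rule picks on this side.

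HIF binds the core letters ACGTG or GCGTG, so the 250 bases before the RefSeq start of each gene were searched for these letters on both strands. The 4 windows below belong to list genes lower in line 1 with 3 or more matches, and are shown to let the letters be seen beside the levels. They come from RefSeq on GRCm38.p6 and are printed 5′ to 3′ on the strand of the gene, with matches in capitals, read as CACGT or CACGC where the match is on the other strand. The Bnip3 window is chr7:138909507-138909756 on the minus strand, that of Ankrd37 is chr8:45999851-46000100 on the minus strand, that of P4ha1 is chr10:59323046-59323295 on the plus strand and that of P4ha2 is chr11:54100674-54100923 on the plus strand.
Bnip3: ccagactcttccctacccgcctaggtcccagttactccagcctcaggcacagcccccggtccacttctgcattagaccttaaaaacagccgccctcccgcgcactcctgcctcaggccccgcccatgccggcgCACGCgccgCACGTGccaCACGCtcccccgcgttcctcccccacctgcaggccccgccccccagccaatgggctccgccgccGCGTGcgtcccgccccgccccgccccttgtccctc
Ankrd37: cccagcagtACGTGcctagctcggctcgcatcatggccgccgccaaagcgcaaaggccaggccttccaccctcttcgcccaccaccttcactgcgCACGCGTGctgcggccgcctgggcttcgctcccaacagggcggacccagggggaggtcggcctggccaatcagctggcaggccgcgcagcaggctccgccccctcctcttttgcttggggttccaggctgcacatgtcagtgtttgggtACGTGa
P4ha1: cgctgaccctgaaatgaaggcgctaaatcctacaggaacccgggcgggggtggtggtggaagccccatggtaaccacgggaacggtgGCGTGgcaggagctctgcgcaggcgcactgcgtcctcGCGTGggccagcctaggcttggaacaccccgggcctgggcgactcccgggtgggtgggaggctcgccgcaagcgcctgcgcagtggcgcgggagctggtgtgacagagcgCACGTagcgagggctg
P4ha2: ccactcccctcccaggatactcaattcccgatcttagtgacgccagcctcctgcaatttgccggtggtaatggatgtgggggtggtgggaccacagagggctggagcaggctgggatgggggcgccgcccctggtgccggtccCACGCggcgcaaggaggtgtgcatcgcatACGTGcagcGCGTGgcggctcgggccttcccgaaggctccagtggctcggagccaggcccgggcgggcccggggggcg
The Bnip3 window held 5 matches, that of Ankrd37 4, and those of P4ha1 and P4ha2 3 each. Pfkp also held 3 and is not shown, since ties were ordered by the size of the difference in line 1. A CACGTG counts as a match on each strand, and Bnip3 has 1. In the Ankrd37 window a match on each strand overlaps within CACGCGTG.

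The letters were not more frequent among the outlying genes at large. Windows were found for 15 of the 17 lower list genes, and 11 of them (73.3%) held a match. Of 13 windows of list genes that did not meet the rule, 10 (76.9%) held one. Among all lower genes it was 71 of 118 (60.2%), among higher genes 28 of 53 (52.8%), and among all 6480 compared genes with a window 60.6%. The share over all 27025 mouse windows was 38.6%. Window base composition moved with these shares, with a median GC content of 66.4% for the lower list genes, 62.8% for the other list genes, 60.4% for all compared genes and 52% for all windows. Eno2, Vegfa, Hk1 and Tpi1 were lower in line 1 and held 0 matches in this window.

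Libraries that the rule did not use placed the same genes in different ways. For the 17 lower list genes, both IEC-CiPSC lines were nearer to lines 2 and 3 than to line 1 in 17 of 17. Their median log2 difference from lines 2 and 3 was 0.86 in IEC-CiPSC line 10 and 0.48 in IEC-CiPSC line 13, above those lines. ESC lay between, with a median of -0.69 from lines 2 and 3 and 1.51 from line 1, and was nearer to line 1 for 4 of 17 genes. Bnip3 was at 182 and 136 FPKM in IEC-CiPSC lines 10 and 13 and at 43.0 FPKM in ESC. Slc16a3 was at 144 and 121 FPKM in the IEC-CiPSC lines and at 68.5 FPKM in ESC. For both genes line 1 was the lowest of the 6 pluripotent libraries.

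**Figure D4:**
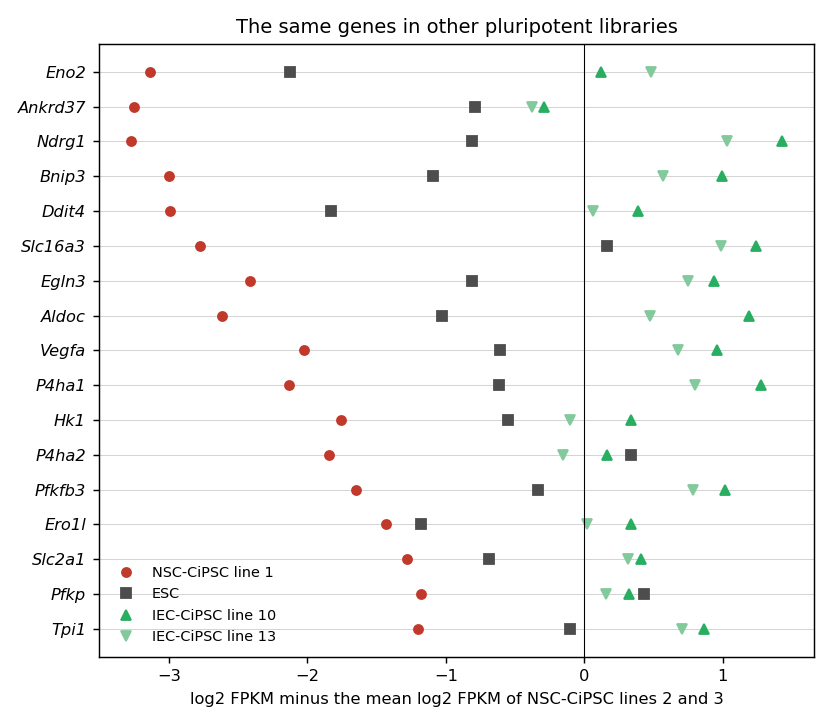
Log2 FPKM minus the mean log2 FPKM of NSC-CiPSC lines 2 and 3 (horizontal axis) for the 17 lower genes (vertical axis) in NSC-CiPSC line 1 (red circles), ESC (grey squares) and IEC-CiPSC lines 10 and 13 (green triangles). Line 1 lies farthest to the left in every row, ESC between 0 and line 1 for most genes, and the IEC-CiPSC lines mostly to the right of 0.

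Over all outlying genes ESC was again nearer to line 1 more often than the IEC-CiPSC lines were. ESC was nearer to line 1 for 52 of 82 higher genes (63.4%) and for 97 of 169 lower genes (57.4%), against 54.0% of all genes compared. IEC-CiPSC line 10 was nearer to line 1 for 17.1% of higher and 16.0% of lower genes, against 34.3% of all, and IEC-CiPSC line 13 for 24.4% and 19.5%, against 38.8%. These genes were picked for their distance from lines 2 and 3, and the ESC line has another genetic background, so the shares are given without a test.

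Some lipid genes were also lower in line 1. Of 18 compared genes of cholesterol synthesis and its control, 3 were lower in line 1, where 1.91% of all genes were, and 0 higher, with a median log2 ratio of -0.64, and line 1 was below both sister lines for 17. Insig1, which retains the SREBP activator in the endoplasmic reticulum, was at 24.3, 67.1 and 60.8 FPKM in lines 1, 2 and 3. Dhcr7, the last enzyme of cholesterol synthesis, was at 15.3, 36.3 and 32.5 FPKM, and Stard4, a sterol carrier, at 4.501, 11.2 and 10.0. Lines 2 and 3 lay close together for the 3 genes that met the rule.

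Fatty acid desaturases and carriers, noticed after their values were seen, went the same way. Scd1 and Scd2 introduce the first double bond into fatty acids. The former was at 5.65, 23.3 and 17.2 FPKM, and the latter at 31.9, 88.0 and 77.3. Fads2, a desaturase of polyunsaturated fatty acids, was at 11.5, 26.1 and 24.3 FPKM, while its neighbour Fads1 was at 13.4, 23.7 and 22.8 and did not meet the rule. Cpt1a, which admits fatty acids to mitochondria for oxidation, was at 15.0, 41.0 and 39.0 FPKM, and Fabp5, a fatty acid binding protein, at 14.4, 38.5 and 37.5.

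Other lower genes came from several lists, and 1.91% of all genes compared were lower in line 1. Stra8, a retinoic acid target that marks entry into meiosis, was at 29.6 FPKM in line 1, 108 in line 2 and 82.1 in line 3, and of 14 compared germline genes 1 was lower and 1, Dnmt3l, higher. Furin, a protease that matures Nodal and TGF-beta precursors, was at 3.59, 8.20 and 7.99 FPKM, and 2 of 11 compared genes of that pathway were lower in line 1. Ddit3 and Nupr1, transcriptional regulators of the stress response, were the lower genes among 21 compared genes of amino acid and unfolded protein stress. The former was at 8.59, 25.004 and 18.9 FPKM, and the latter at 31.1, 71.3 and 74.4. Atf4, which acts upstream of both, was at 227, 175 and 237 FPKM and did not meet the rule.

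The largest lower differences by the naming rule also included 4 genes outside the lists above. Espn, an actin-bundling protein, was at 1.29 FPKM in line 1 against 13.4 and 9.65. Foxn4, a forkhead factor of retina and spinal cord, was at 1.40 against 7.12 and 8.36. Elf3, an epithelial ETS factor, was at 12.5 FPKM (10.9 to 14.2) against 72.9 (68.7 to 77.1) and 52.2 (48.9 to 55.6), a 4.17-fold gap at a higher level. The symbol Rnf113a2 appeared on this side too and is treated below as uncertain.

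The higher genes included targets of FGF and ERK signalling. Of 15 genes on this list 10 were compared, and 3 were higher in line 1 and 1 lower. The 3 higher genes reached the required mean through their level in line 1, so the count is no measure of the list, and it was 4 with no level filter and 0 at a mean of 10 FPKM. The 5 below the required mean were Dusp4, Etv1, Egr1, Fosl1 and Phlda1. Myc, the growth-promoting transcription factor at chr15:61985391-61990374, was at 21.0 FPKM in line 1 (17.8 to 24.1), 1.54 in line 2 (0.701 to 2.38) and 2.53 in line 3 (1.55 to 3.50), 8.31-fold above the nearer line. Spry4, a feedback inhibitor of receptor tyrosine kinase signalling, was at 13.2 FPKM (12.1 to 14.3) against 0.732 (0.465 to 1.00) and 2.34 (1.89 to 2.79). Dusp6, the phosphatase that switches off ERK, was at 14.1 FPKM (12.7 to 15.6) against 1.98 (1.41 to 2.56) and 5.75 (4.84 to 6.67). For all 3 genes line 1 was highest and line 3 above line 2.

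Related genes of the list lay in the same direction without meeting the rule. Spry2 was at 76.5 FPKM in line 1 against 31.7 and 39.8, Etv5, an ETS factor downstream of FGF, at 107 against 51.0 and 57.7, and Ccnd1, the G1 cyclin, at 50.9 against 24.8 and 32.7. The lower gene was Ier3, an early response gene, at 5.79, 21.98 and 16.8 FPKM. Dusp9, a phosphatase of ERK that BMP signalling induces in these cells, was lower as well, at 50.3 FPKM in line 1 against 118 and 114. Mycn, the Myc relative prominent in pluripotent cells, was at 77.3 FPKM (73.3 to 81.3) against 18.6 (16.7 to 20.5) and 28.5 (26.2 to 30.8), and was named after its values were seen. Mycl, a further relative, was at 1.57, 4.61 and 3.51 FPKM, below the level required.

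The other pluripotent libraries differed for these genes. Myc was at 11.7 FPKM in ESC and at 0.740 and 1.44 in IEC-CiPSC lines 10 and 13. Spry4 was at 29.9 FPKM in ESC, above line 1, and at 1.52 and 2.06 in the IEC-CiPSC lines. Dusp6 was at 9.50 FPKM in ESC and at 1.48 in each IEC-CiPSC line. Mycn was at 43.6 FPKM in ESC and at 39.4 and 46.0 in the IEC-CiPSC lines, so these 3 libraries lay close together for it. The media of these cultures are not in the labels used here, and their part in the differences was not tested.

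Among BMP-related genes, the Id genes encode inhibitors of differentiation-promoting transcription factors. Id1 was at 28.4 FPKM in line 1 (24.4 to 32.5) against 10.3 and 11.8, and Id3 at 31.0 FPKM (27.02 to 34.9) against 7.12 and 8.87. Id2 lay level, at 7.95, 7.17 and 7.70 FPKM. With Dusp9 this list of 4 compared genes held 2 higher and 1 lower gene, against 0.925% and 1.91% of all genes compared. Bmp4, the ligand, was at 5.85, 1.58 and 2.46 FPKM, below the level required.

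Dnmt3l, the cofactor of the de novo DNA methyltransferases at chr10:78041947-78063622, was at 257 FPKM in line 1 (246 to 268), 87.5 in line 2 (81.5 to 93.6) and 87.6 in line 3 (81.6 to 93.7). It was the sole gene to meet the rule among 12 compared genes of DNA methylation, whose median log2 ratio was 0.53. Of all genes compared, 2.83% met the rule. The enzymes that Dnmt3l serves were close to the limit. Dnmt3a was at 89.5 FPKM in line 1 against 43.6 and 48.7, and Dnmt3b at 106.5 against 51.1 and 53.4. Dnmt1, which maintains methylation, was at 75.9, 73.4 and 80.1 FPKM. Dnmt3l was at 301 FPKM in ESC and at 192 and 199 in IEC-CiPSC lines 10 and 13, so lines 2 and 3 were the lowest of the 6 pluripotent libraries for it. In the same order Dnmt3a was at 42.8, 13.6 and 14.9 FPKM and Dnmt3b at 50.4, 25.3 and 31.5, with line 1 the highest of the 6 for both.

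The core pluripotency list was compared in full, with a median log2 ratio of 0.13. Where 0.925% of all genes compared were higher in line 1 and 1.91% lower, 2 of the 30 list genes were higher and 0 lower. Zfp296, a zinc finger gene among them, was at 27.04, 13.4 and 12.4 FPKM in lines 1, 2 and 3. Lin28a, an RNA-binding protein that blocks let-7 maturation, missed the limit at 149.7 FPKM against 67.1 and 75.7, and Prdm14 missed it on the other side at 4.68 against 11.0 and 9.06. The list thus held genes displaced in both directions around a median near that of all genes. Zscan10, a further zinc finger factor of pluripotent cells named after its values were seen, was at 57.2, 18.3 and 24.96 FPKM.

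**Figure D5:**
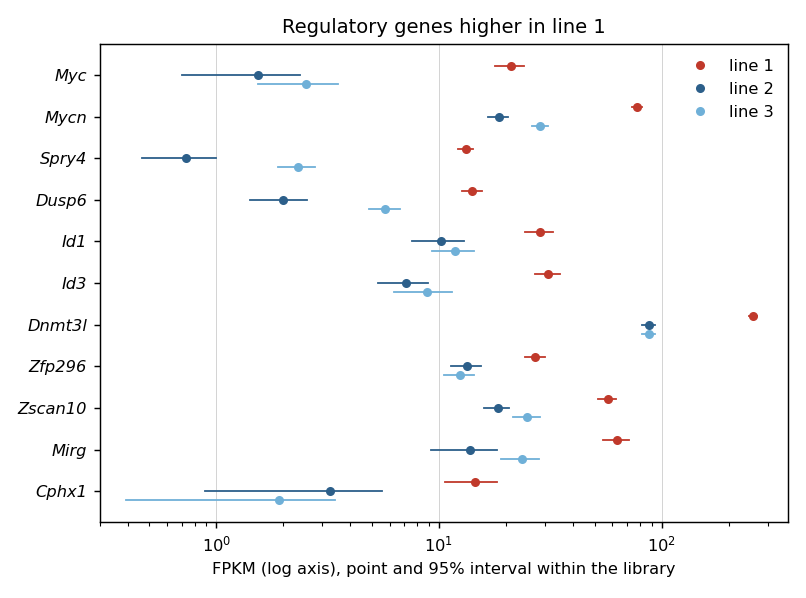
FPKM on a log axis (horizontal) in NSC-CiPSC lines 1 (red), 2 (dark blue) and 3 (light blue) for 11 regulatory genes higher in line 1 (vertical), with points for levels and bars for 95% intervals within the library. The red point lies to the right of both blue points in every row, by 8.31-fold for Myc and 2.02-fold for Zfp296 from the nearer line.

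Maternally expressed non-coding RNAs of the Dlk1-Dio3 imprinted locus on chromosome 12 were also higher in line 1. Their silencing is a known form of variation among mouse pluripotent lines, and all 3 lines expressed them. Meg3 was at 343 FPKM in line 1, 83.7 in line 2 and 173 in line 3, and just missed the 2-fold limit at 1.98-fold. Rian was at 817, 305 and 437 FPKM. Mirg, at chr12:109729764-109749460, met the rule at 63.2 FPKM (54.7 to 71.6) against 13.8 (9.19 to 18.3) and 23.6 (19.02 to 28.2), and so did the entry Gm26906 at chr12:109568628-109571723, at 18.6, 4.21 and 8.30 FPKM. Gm26906 lies within the Meg3 entry on the opposite strand, and use of strand in counting is not given in the sources used here, so its fragments cannot be told from those of Meg3. Over the 4 list genes compared, which include the paternally expressed Dlk1 at 10.2, 4.72 and 8.63 FPKM, the median log2 ratio was 1.34, and line 1 was above both sisters for all 4. Of the 24 compared genes of other imprinted loci, 0 met the rule in either direction. With 2.83% of all compared genes meeting the rule, that count is near the background.

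The Cphx genes, homeobox genes expressed in early embryos, were higher in line 1 as a cluster on chromosome 14, in 3 of 9 compared entries of the span. Cphx1 was at 14.4, 3.23 and 1.91 FPKM, Cphx2 at 12.3, 2.21 and 2.20, and Cphx3 at 13.1, 2.41 and 2.15. All of them reached the required mean through their level in line 1. ESC held 1.23, 1.20 and 1.44 FPKM of them. These are near-identical copies, and the entry of Cphx3 overlaps that of Cphx2, so how fragments were divided among them is uncertain and they count as 1 observation. Of 8 compared genes of the 2-cell-like state, such as Zscan4c at 23.2, 36.3 and 25.6 FPKM, 0 met the rule. The share over all genes compared was 2.83%, so this count is near the background.

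The rest of the largest higher differences had varied roles. Enox1, a cell-surface oxidase, was at 24.1 FPKM (22.4 to 25.8) in line 1 against 1.95 and 3.87. Dusp27, an inactive phosphatase homologue of muscle, was at 23.0 against 2.86 and 4.68, and Fgfbp1, which releases FGF from the matrix, at 39.3 against 3.97 and 10.6. Enox1 was at 20.5 and Dusp27 at 15.2 FPKM in ESC, near line 1, while Fgfbp1 was at 1.55. Trim2, a ubiquitin ligase, was at 10.2, 2.63 and 2.44 FPKM, Slc39a14, a zinc and iron importer, at 17.2, 4.63 and 4.18, and Spink3, a trypsin inhibitor, at 19.5, 4.59 and 5.41. Enpp3, an ectonucleotidase, was at 12.0, 3.53 and 3.53 FPKM, and Ddx58, which encodes the RNA sensor RIG-I, at 15.5, 3.78 and 4.75. Enox1, Dusp27, Trim2, Slc39a14, Enpp3 and Ddx58 lay below 5 FPKM in both sister lines, so they reached the required mean through line 1. None of the 9 compared interferon and antigen presentation genes met the rule alongside Ddx58, a count near the 2.83% share over all genes compared.

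Single genes of other lists were higher in line 1, where 0.925% of all genes compared were higher. Ctgf, a matrix protein induced through YAP, was at 27.3, 8.73 and 11.7 FPKM, and Anxa3, an annexin, at 11.4, 5.02 and 5.06, the 2 higher among 21 compared genes of the cytoskeleton and serum response. Hist1h1c, a linker histone, was at 10.6, 4.20 and 4.29 FPKM, 1 of 6 compared histone genes, and Hsph1, a heat shock protein, at 106, 43.9 and 52.0, 1 of 11 compared immediate early and heat shock genes. Olig2, a neural stem and oligodendrocyte factor, was at 11.1, 3.65 and 5.32 FPKM, and at 191 FPKM in the neural stem cell library. The summed level of the 12 neural stem cell markers was 36.1, 31.0 and 25.5 FPKM in the 3 lines, and 1 of 3 compared met the rule. Hist1h1c and Olig2 reached the required mean through their level in line 1, so the counts for their lists are no measure of those lists. Fabp7, the most abundant of them in neural stem cells at 4546 FPKM, was at 0.327 in line 1, 5.78 in line 2 and 0.320 in line 3.

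Of 15 compared transcripts of the mitochondrial genome, 14 lay above both sister lines in line 1 and the median log2 ratio was 1.19, but 1 met the rule. That gene was mt-Cytb, of respiratory complex III, at 2468 FPKM in line 1, 444 in line 2 and 1206 in line 3. The gene mt-Nd1, of complex I, was at 3279.9, 710.5 and 1805 FPKM, and mt-Co1, of complex IV, at 4539, 2487 and 4711. Line 2 was the lowest for both, and mt-Co1 was slightly higher in line 3 than in line 1. The mitochondrial share moved with the line, and at 6.03% and 6.87% in IEC-CiPSC lines 10 and 13 and 4.88% in ESC it was lowest in lines 2 and 3. Without these transcripts line 1 had 81 higher and 169 lower genes, and line 2 was outside both others in 16 genes in place of 23. Scaling to the sum without these transcripts and other unreliable entries gave 102 higher and 143 lower genes, with 17 lower genes of glycolysis and hypoxia as before.

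Of the remaining lists, 0 genes met the rule among 8 compared LIF and STAT3 targets, 4 Wnt targets, 14 p53 and apoptosis genes, 4 metallothionein and zinc response genes, 3 X-linked multicopy and Rhox genes, 3 Y-linked genes and 4 genes of the primed epiblast and germ layers. With 2.83% of all compared genes meeting the rule, a count of 0 in lists this short is near the background. Socs3, the feedback inhibitor of LIF signalling, was at 43.5, 44.9 and 49.8 FPKM in lines 1, 2 and 3.

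Some entries are uncertain because a symbol is listed under several overlapping entries between which fragments could be split. Rnf113a2 met the rule in both directions, with 22.002 FPKM in line 1 against 0.266 and 0.256 in 1 entry, and 0.00979 against 18.8 and 18.1 in the other. Summed, its entries gave 22.01, 19.07 and 18.4 FPKM, which lie close together. The entries of Gm9844 summed to 80.4, 92.0 and 98.96 FPKM and those of BC037034 to 6.03, 7.51 and 10.2. The sums for Tnfaip8 were 4.09, 11.0 and 9.40 FPKM. With such entries summed, 81 genes were higher and 166 lower.

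Of the 82 higher genes, 23 had a symbol starting with Zfp, Zscan or Gm, which mark zinc finger genes and predicted genes, against 3 of the 169 lower genes and 662 of all 8867 compared (7.47%). This grouping was made after the values were seen. How fragments were divided among genes of like sequence was not tested, so the 23 may not be separate observations. On chromosome 2, Gm14139, Gm21994, Gm14124 and Gm14136 lay within chr2:150181755-150706876, where 4 of 6 compared entries were higher. Gm14136 was at 22.1, 3.32 and 6.81 FPKM and Gm14139 at 14.1, 6.77 and 6.39.

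Runs of neighbouring lower genes, each within 500 kb of the next, were found at several places. On chromosome 3 all 4 compared entries within chr3:10012548-10391005, Fabp5, Impa1, Zfand1 and Chmp4c, were lower in line 1, with Chmp4c at 3.00 against 10.4 and 10.2 FPKM and Impa1 at 14.7 against 33.2 and 33.0. On chromosome 6 the run of Eno2, Tpi1, Ptms and Tuba3a held 4 of 18 compared entries. Chromosome 10 held 3 runs, made of Aifm2, 2010107G23Rik and Hk1 (3 of 4), of Gadd45b, Tjp3, Aes and Tle6 (4 of 25), and of Ddit3, Ndufa4l2 and Lrp1 (3 of 6). A further run was Ier3, Flot1 and Nrm on chromosome 17, 3 of 5 entries. Of the runs described, only that on chromosome 3 took in every compared entry in its span.

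Over the autosomes and the X chromosome, the chromosome median of the log2 ratio differed from that of all genes by -0.07 to 0.06, with the lowest median on chromosome 6 at -0.12. There the like median was -0.03 for line 2 and 0.14 for line 3, and line 3 is part of the reference of line 1. Over the 6 compared genes of the Y chromosome the medians were 0.04 for line 1, 0.32 for line 2 and -0.72 for line 3. Over the 15 of the mitochondrial genome the median of line 1 was 1.19. By GC content of the longest transcript, the median ratio went from 0.01 in the lowest of 5 equal groups of genes to -0.12 in the highest, and the share of genes lower in line 1 from 0.626% to 3.64%. The median GC content was 53.7% for lower genes, 50.2% for higher genes and 49.7% for all. By transcript length the median ratio went from -0.11 in the shortest of 5 groups to -0.01 in the longest. The part of base composition, length and mitochondrial share in the results was not tested.

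Close to the limit, the values of genes on either side were alike. Gm13235 was just inside as higher, at 37.9 FPKM in line 1 against 18.1 and 18.8, and so was Gm6792 at 13.0 against 3.72 and 6.44. L1td1 was just outside at 325 against 132 and 163, and so was Cdadc1 at 11.8 against 5.79 and 5.94. As lower, Ephx1 was just inside at 5.79 against 17.3 and 11.6, and so was Pltp at 15.1 against 33.2 and 30.2. Fam98c was just outside at 12.1 against 24.2 and 25.04, and so was Igfbp2 at 173 against 527 and 345.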

How the data were processed

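Levels are FPKM values of the authors, and the submitters' processing notes name TopHat, Cufflinks and the build mm10. Tool versions and the annotation release are not given in the sources used here. RNA was isolated, per the labels, with an RNeasy Plus Mini kit and libraries made with NEBNext Ultra reagents. Each deposited file held 39009 entries with an FPKM, its 95% interval and a status, per the file headers.

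Of 8958 entries with a mean of at least 5 FPKM over the 3 lines, 17 were left out for status and 74 for -ps symbols. The 27 symbols turned into dates were restored from identifiers, and for 99.1% of compared entries GENCODE M21 gave, by identifier, biotype, length and GC content. Levels were floored at 0.01 FPKM in log2 ratios. Intervals bound the error within a library, and 1 line against 2 allows no informative test. The rule was tested on simulated data.

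The lines, the rule and the gene lists were chosen with earlier results of these data known. Genes named are the 15 largest differences in each direction by the nearer log2 ratio (without Gm, Rik and similar symbols), list genes meeting the rule, identity genes, neighbouring runs and genes at the 2-fold limit. Where a list had over 6 such genes, those beyond the 6 of highest level were named after their values were seen unless among the largest, as were HIF pathway genes outside the lists, lipid enzymes outside the cholesterol list, Mycn, Mycl, Zscan10, Gm26906, Gm14136 and list genes that missed the rule. A few results that the rule picks are not reported here. Alternative filters, folds, scalings and left-out lines were tried. Promoter windows are RefSeq on GRCm38.p6. Tables were made with pandas 2.3.3 and NumPy 2.4.6 in Python 3.11.15, and plots with matplotlib 3.10.9.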

Additional observations from a re-analysis of the deposited data

How the results depend on the processing

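Counts of outlying genes followed the level filter and the fold. Genes higher and lower in line 1 numbered 149 and 312 at a mean of at least 1 FPKM, 44 and 110 at 10 FPKM, 212 and 355 with no level filter, 320 and 570 at 1.5-fold and 19 and 37 at 3-fold. Line 2 was outside both others in 49 genes at 1 FPKM, 67 with no filter, 132 at 1.5-fold, 3 at 3-fold and 64 without the requirement on intervals, and line 3 in 1, 9, 8, 0 and 30. Under each of these settings line 1 kept the largest count. Lower genes of glycolysis and hypoxia were 10 at 3-fold. Higher FGF and ERK targets were 0 at 10 FPKM, since the means of Myc, Spry4 and Dusp6 lie under that level, and 7 at 1.5-fold. Leaving out line 2 or line 3 gave 102 to 228 higher and 201 to 354 lower genes, 17 to 20 of glycolysis and hypoxia and 3 to 7 FGF and ERK targets, with the higher counts without line 3. Leaving out line 1 gives no value. Scaling by the median ratio, the upper quartile or the sum without mitochondrial and unreliable entries gave 88 to 102 higher and 143 to 163 lower genes. Summing double-listed entries and leaving out mitochondrial entries were chosen after seeing the data. No paired analysis was possible because no result comes from a test and the NSC-CiPSC and IEC-CiPSC lines share no numbers. Depth limits lower genes through line 1, where the median was 56.0 fragments, against 252 for higher genes.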

Other observations

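Of 21 compared genes on the list of cytoskeleton and serum response, 14 lay above both sister lines in line 1, and the median log2 ratio was 0.44 against -0.06 over all genes. The following 5 did not meet the rule. Tagln, an actin-binding protein of smooth muscle, was at 60.4 FPKM in line 1 against 31.1 and 24.5 in lines 2 and 3, and Acta2, smooth muscle actin, at 23.0 against 12.2 and 11.3. The keratin pair Krt8 and Krt18 was at 50.2 and 52.1 FPKM in line 1, 28.0 and 29.6 in line 2, and 23.0 and 24.1 in line 3. Cyr61, a matrix protein related to Ctgf, was at 36.1 FPKM against 12.7 and 19.01. In ESC these genes were lower than in each NSC-CiPSC line, with Tagln at 2.62 FPKM and Krt18 at 5.16.

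Line 3 differed from its sisters on chromosome 6. Over 397 compared genes the median log2 ratio of line 3 to the geometric mean of lines 1 and 2 was 0.14 there, with quartiles of 0.02 and 0.28, while on the other autosomes its medians lay between -0.03 and 0.04. The genes and the chromosome named here were chosen after their values were seen.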
